A study of Acropora aff. hyacinthus sp. E JTL-2012 with 12 samples.

Results

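The germ line and egg yolk contigs are 27 of the 16980 contigs of an assembled coral transcriptome, chosen by words in the description that the table gives each contig. The words were vitellogenin, piwi, vasa, nanos, tudor domain, zona pellucida, oocyte, boule, pumilio, synaptonemal and meiotic. The search found 1 contig for vitellogenin, 3 for piwi, 2 for nanos, 4 for tudor domain, 6 for zona pellucida, 6 for oocyte, 3 for pumilio and 2 for meiotic. The words vasa, boule and synaptonemal matched 0 contigs. The 27 contigs carry 14 descriptions, and several contigs with the same description may be pieces of 1 transcript or separate genes. Of the 27 contigs, 25 reached a mean of 10 over the libraries and were tested. The contigs under that mean were the vitellogenin contig and 1 of the 6 zona pellucida contigs.

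RNA was measured in polyps of 6 colonies of the table coral Acropora aff. hyacinthus sp. E JTL-2012. Each colony was split between 2 pools of a back reef, pool 300 and pool 400, with 1 fragment in each, and pool 300 is known for the wider temperature swings. Corals 2, 7 and 75 had their origin in pool 300, and corals 40, 68 and 70 in pool 400. Fragments were moved on August 3, 2010, and all were sampled around noon on August 30, 2011. The 4 groups were thus origin 300 living in pool 300, origin 300 living in pool 400, origin 400 living in pool 300 and origin 400 living in pool 400, with 3 corals in each. No sex, age or reproductive state of the colonies was used here. Values are normalised read counts, that is, reads divided by 1 factor per library, and 1 read is worth between 0.586 and 1.66 in these units. They are not divided by contig length, so levels are compared between libraries and not between contigs.

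Most corals of this genus are hermaphrodites that make eggs and sperm within the same polyps. In animals, germ cells keep their identity with RNA-binding proteins such as Nanos and Pumilio, which repress translation of target mRNAs together. They also silence transposons with small RNAs carried by Piwi proteins, which assemble with Tudor domain proteins in granules beside the nucleus. Growing oocytes store yolk, of which vitellogenin is the main precursor protein, and are wrapped in a coat built from proteins with zona pellucida domains. In cnidarians Piwi and Nanos are also expressed in stem cells outside the gonad, so their mRNAs do not mark germ cells alone.

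The libraries held between 557339 and 1643526 recovered reads, with a median of 885480. The shallowest was the pool 400 library of coral 2 and the deepest the pool 400 library of coral 70. These 2 libraries also stood at the ends of the members' values. Of the 25 tested members, 16 had their highest value in the pool 400 library of coral 70, where the same held for 47.6% of all tested contigs. After the libraries were rescaled with median-ratio factors, this number was 6, against 10.8% of all tested contigs. For the pool 400 library of coral 2, 10 members had their lowest value there, against 32.8% of all tested contigs, and 10 after rescaling, against 23.5%. The 2 fragments of corals 40 and 68 did not resemble each other: over all tested contigs, their deviations from the group means correlated at -0.220 and 0.063, and at 0.169 and 0.311 when the pool 400 fragments were exchanged. The fragments of corals 2, 7, 75 and 70 correlated at 0.688, 0.658, 0.496 and 0.394. Whether the labels of corals 40 and 68 hold was not tested further, and their exchange or omission is given where it alters a result. In whole polyps, fewer germ cells and less RNA per cell cannot be told apart.

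**Figure D1:**
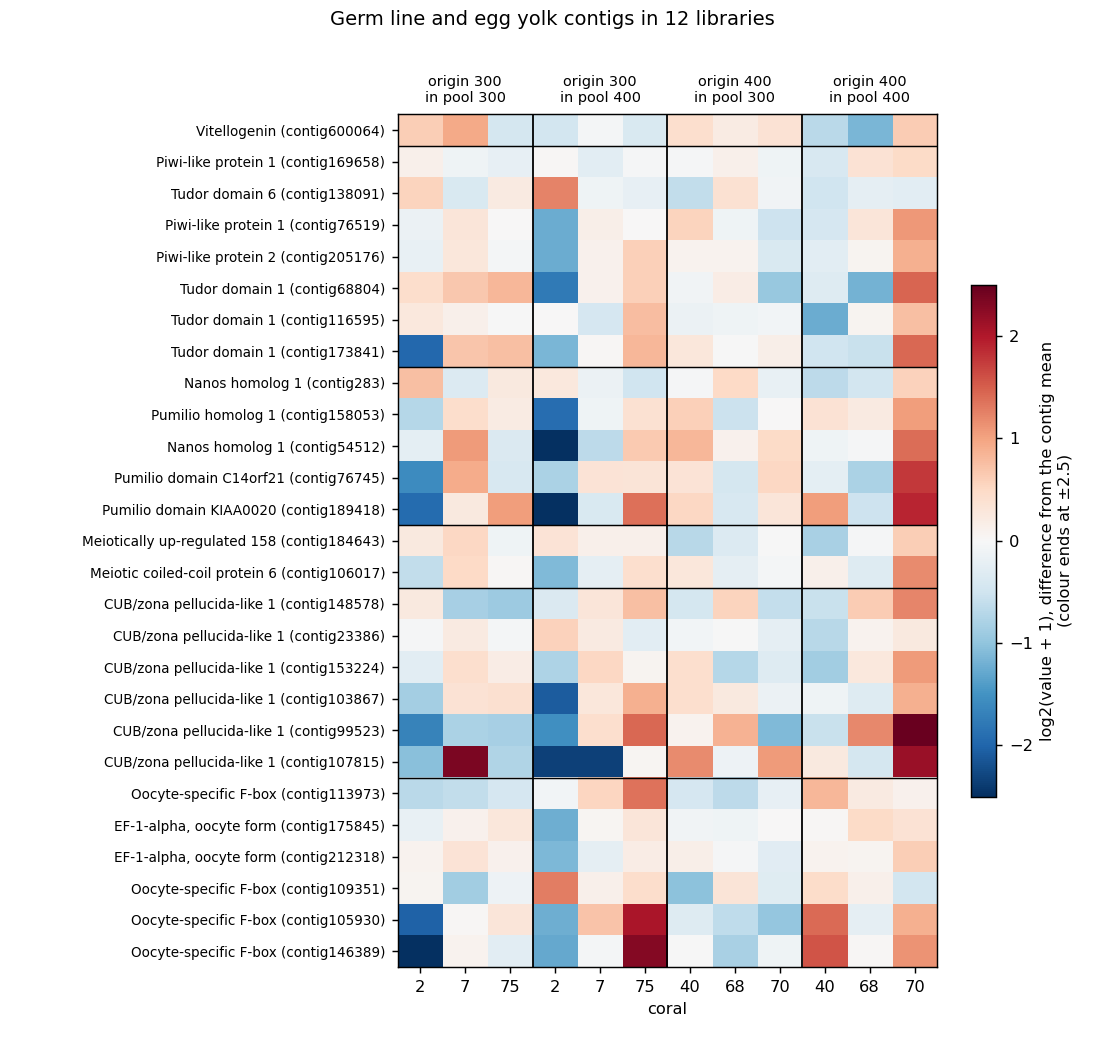
Levels of the 27 germ line and egg yolk contigs in the 12 libraries. Each cell gives log2(value + 1) minus the mean of its contig over the 12 libraries, with colour ending at ±2.5; rows are grouped by role, columns by origin and pool. The pool 400 library of coral 70 is red for most contigs and that of coral 2 is blue for many, while the Oocyte-specific F-box contigs are higher in most pool 400 libraries.

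The vitellogenin contig, the only member that names a yolk protein, was low in every library. Vitellogenin (contig600064) had a mean of 7.95 over the 12 libraries and rested on 111 reads in all, with 2 to 24 reads per library. In pool 300 it stood at 11.6, 14.9 and 5.03 in corals 2, 7 and 75, and at 9.96, 8.43 and 9.51 in corals 40, 68 and 70. Its pool 400 values were 4.97, 6.98 and 5.28 in corals 2, 7 and 75, and 4.13, 2.75 and 11.8 in corals 40, 68 and 70. The pools overlapped, and the contig was higher in pool 300 in 4 of 6 corals as deposited and in 6 of 6 after rescaling. After rescaling the log2 difference in coral 75 was 0.073. The share of all contigs higher in pool 300 in 6 of 6 corals is not given here. Its mean was 9.91 ± 3.30 in pool 300 and 5.98 ± 3.16 in pool 400 (SD, n = 6). When all 16980 contigs were fitted without a minimum mean, its log2 difference, pool 300 minus pool 400, was 0.694 (SE 0.369, limma unadjusted p = 0.0861, adjusted p = 0.999). In the same fit it was at 0.073 between origins (SE 0.491, limma adjusted p = 0.998). It was called in neither comparison.

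The first comparison asked how the members' levels related to the pool in which the fragments lived. The members of smallest p were the 4 contigs named Oocyte-specific F-box protein. Their levels were lower in pool 300 than in pool 400, with log2 differences from -1.23 to -0.65 on the log2(value + 1) scale, but none passed the test across all contigs. F-box proteins recruit targets to ubiquitin ligases, which mark them for degradation. The words oocyte-specific come from the description alone, and whether these contigs are expressed in oocytes of this coral was not tested. Over the 6 corals 0 of 25 members had a limma adjusted p under 0.05, where 0.344% of all 11903 tested contigs did, all of them lower in pool 300. At an unadjusted p under 0.05 there were 4 members, the 4 F-box contigs, against 4.87% of all tested contigs. By edgeR on the recovered reads 0 members were called, and by DESeq2 2 were, both F-box contigs. Over all tested contigs edgeR called 8 and DESeq2 104, against 41 by limma.

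In pool 300 the F-box contig113973 stood at 62.3, 65.4 and 75.4 in corals 2, 7 and 75, and at 75.03, 63.8 and 86.6 in corals 40, 68 and 70. In pool 400 the values were 96.0, 147 and 258 in corals 2, 7 and 75, and 178, 118 and 109 in corals 40, 68 and 70. All pool 400 values were above all pool 300 values as deposited. The pool means were 71.4 ± 9.35 and 151 ± 60.1 (SD, n = 6 each). The mean within-coral difference of log2(value + 1), pool 300 minus pool 400, was -0.997 (SE 0.19, limma adjusted p = 0.0669), or 1.995-fold on that scale. It was the 1 member of 25 whose pools did not overlap, against 0.504% of all tested contigs. After rescaling the pools overlapped and coral 70 had a difference of 0.309, so that 5 of 6 corals were lower in pool 300. The contig passed the test with DESeq2 (adjusted p = 0.00809) and without coral 70 (limma adjusted p = 0.029), and its adjusted p over all alternatives ran from 0.00809 to 0.313.

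The F-box contig105930 was lower in pool 300 in 6 of 6 corals, both as deposited and after rescaling. In pool 300 it stood at 7.24, 33.003 and 40.2 in corals 2, 7 and 75, and at 25.8, 20.47 and 16.2 in corals 40, 68 and 70. In pool 400 the contig was at 13.2, 54.1 and 136 in corals 2, 7 and 75, and at 88.4, 27.5 and 60.9 in corals 40, 68 and 70. The pools overlapped, as corals 2 and 68 in pool 400 stood below the highest pool 300 values. The mean was 23.8 ± 11.9 in pool 300 and 63.4 ± 44.3 in pool 400 (SD, n = 6). Pool 300 minus pool 400 gave -1.20 (SE 0.25, limma adjusted p = 0.105), with adjusted p from 0.00418 to 1 over the alternatives, the lowest by DESeq2. In coral 2 the contig rested on 5 reads in pool 300 and 8 in pool 400.

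For the F-box contig146389 the pool 300 values were 1.45, 14.3 and 11.1 in corals 2, 7 and 75, and 13.5, 7.23 and 12.4 in corals 40, 68 and 70. The pool 400 values were 4.97, 13.1 and 69.7 in corals 2, 7 and 75, and 42.1, 13.7 and 30.5 in corals 40, 68 and 70. The contig was lower in pool 300 in 5 of 6 corals, and in 6 of 6 after rescaling, and the difference was -1.23 (SE 0.36, limma adjusted p = 0.417). Its lowest library, coral 2 in pool 300, held 1 read.

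The F-box contig109351 stood in pool 300 at 59.4, 30.5 and 52.3 in corals 2, 7 and 75, and at 27.6, 71.0 and 45.7 in corals 40, 68 and 70. The values in pool 400 were 139, 61.9 and 77.1 in corals 2, 7 and 75, and 78.5, 61.9 and 40.9 in corals 40, 68 and 70. It was lower in pool 300 in 4 of 6 corals, and corals 68 and 70 had differences of 0.197 and 0.157. It was at -0.65 (SE 0.25, limma adjusted p = 0.823).

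Taken by coral, 21 of the 24 differences of the F-box contigs, 4 contigs in 6 corals, were below 0, and 21 were after rescaling. These contigs were singled out for their small p in this same comparison and may be pieces of 1 transcript. The 24 differences are thus not independent, and their count is a description and not a further test. The median over the 4 contigs was -1.002, -0.85 and -1.75 in corals 2, 7 and 75, and -1.53, -0.63 and -0.78 in corals 40, 68 and 70. Over all tested contigs the medians of the same corals were 0.25, 0.21 and -0.13, and 0.17, 0.04 and -0.53. In coral 70 the F-box median was -0.16 after rescaling, beside 0.09 for all contigs. Contigs lower in pool 300 in all 6 corals were 2 of the 25 members, contig113973 and contig105930, against 1.76% of all tested contigs. After rescaling they were again 2, contig105930 and contig146389, against 1.86%. The other F-box proteins of the table, a list added after the data were seen, held 26 contigs, of which 16 were tested. None of these 16 was called for the pool by limma, none had an unadjusted p under 0.05, and their median log2 difference was 0.121, with 5 below 0.

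**Figure D2:**
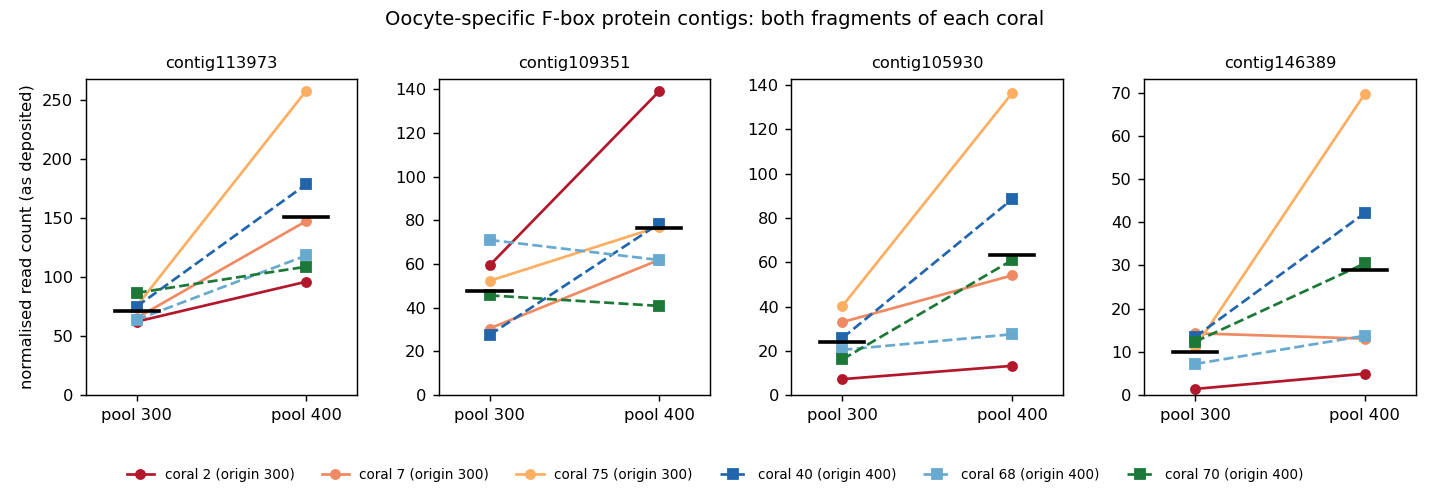
Normalised read counts of the 4 Oocyte-specific F-box contigs in both fragments of each coral. Lines join the 2 fragments of 1 coral, circles with solid lines stand for origin 300, squares with broken lines for origin 400, and black bars give the mean of 6 corals. The mean is higher in pool 400 in each panel, and 21 of the 24 lines rise from pool 300 to pool 400. The 4 contigs were singled out for their small p in this comparison, so the lines are not independent support for it.

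Marker lists of other cell types were read beside the F-box contigs. The 46 sperm and cilia contigs had a summed level of 1740.6 to 1823.9 in origin 300 living in pool 300 and 1785.7 to 2204.3 in origin 300 living in pool 400. In origin 400 the sums were 1842.1 to 1948.4 in pool 300 and 1594.7 to 3053.5 in pool 400. Of the 32 tested, 0 were called, 3 (9.38%) had an unadjusted p under 0.05, against 4.87% of all tested contigs, and 17 were below 0, with a median of -0.008. Of these 32, 3 were lower in pool 300 in all 6 corals, or 9.38%, against 1.76% of all tested contigs. Tektin-B1 (contig98149), a protein of flagellar and ciliary microtubules, was at -0.81 between pools (SE 0.23, limma adjusted p = 0.408), and Tektin-2 (contig137500) at -0.66 (SE 0.24, limma adjusted p = 0.742). The 32 muscle contigs summed to 2596.4 to 3056.8 and 2014.1 to 2655.2 in origin 300 living in pools 300 and 400, and to 2471 to 2706.9 and 1740.1 to 3471.1 in origin 400. Of the 21 tested muscle contigs 0 were called, 4 (19%) had an unadjusted p under 0.05 and 7 were below 0, at a median of 0.171, with Tropomyosin-2 (contig112464) at 0.80 (SE 0.18, limma adjusted p = 0.143). The 9 cnidocyte contigs, markers of the stinging cells, summed to between 304.1 and 502.1, and 0 of the 4 tested were called. None of these lists had a contig at 0 in all libraries. Their part in the F-box values was not tested.

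Outside the F-box contigs no member had an unadjusted p under 0.05 between the pools. Among the 7 tested Piwi and Tudor contigs, the log2 differences ran from -0.06 to 0.37, 3 below 0 and 4 above, with the smallest unadjusted p at 0.49. Piwi-like protein 1 (contig169658), the member of this group with the highest mean, binds small RNAs that silence transposons. In pool 300 it stood at 159, 135 and 126 in corals 2, 7 and 75, and at 143, 160.2 and 135 in corals 40, 68 and 70. The pool 400 fragments gave 149, 120.3 and 144 in corals 2, 7 and 75, and 109.9, 188 and 204 in corals 40, 68 and 70. The pool 300 values lay within the range of the pool 400 values, with a difference of -0.06 (SE 0.14, limma adjusted p = 0.9996). The highest library was 1.85-fold above the lowest on the value + 1 scale, the narrowest range among the members described here. The second Piwi-like protein 1 (contig76519) ranged from 19.9 to 103, and Piwi-like protein 2 (contig205176) from 9.94 to 47.1. Both had their lowest value in the pool 400 library of coral 2 and their highest in that of coral 70.

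Tudor domain-containing proteins dock onto Piwi proteins. Tudor domain-containing protein 6 (contig138091) ranged from 52.2 in coral 40 in pool 300 to 194 in coral 2 in pool 400, and so ran against the low values of that library in other members. The 3 contigs of Tudor domain-containing protein 1 had means of 13.9 (contig116595), 16.4 (contig68804) and 10.3 (contig173841). Their log2 differences between pools were 0.01, 0.37 and -0.04, with SEs of 0.34, 0.51 and 0.40. Each of the 3 differences was smaller than its SE.

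DDX4, the helicase known as Vasa in flies and a classical germ line marker, carries another name in this table and so was not a member. Of its 5 contigs, added after the data were seen, 3 were tested, of which 0 were called between the pools and 0 had an unadjusted p under 0.05. The contig with the highest mean (contig210067) had means of 142 ± 11.9 and 126 ± 11.8 in pools 300 and 400 (SD, n = 6), a difference of 0.17 (SE 0.11, limma adjusted p = 0.9996). It was higher in pool 300 in 6 of 6 corals as deposited, by 0.104 to 0.244, and lower in 2 of 6 after rescaling. For all tested contigs the share higher in 6 of 6 corals is not given here.

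Nanos and Pumilio act as partners in repressing mRNAs in germ cells. Among the 5 tested contigs of this group the log2 differences ran from -0.20 to 0.62, with the smallest unadjusted p at 0.213. The Nanos homolog 1 contig283 stood in pool 300 at 94.1, 43.6 and 65.4 in corals 2, 7 and 75, and at 53.9, 78.3 and 48.5 in corals 40, 68 and 70. Its pool 400 values were 66.2, 49.7 and 39.1 in corals 2, 7 and 75, and 34.7, 39.9 and 82.4 in corals 40, 68 and 70. It was higher in pool 300 in 4 of 6 corals, and the difference was 0.31 (SE 0.23, limma adjusted p = 0.9996).

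The second Nanos homolog 1 (contig54512) differed more between libraries. In pool 300 it stood at 18.8, 47.9 and 17.1 in corals 2, 7 and 75, and at 40.4, 24.1 and 31.4 in corals 40, 68 and 70. In pool 400 the contig was at 1.66, the worth of 1 read, in coral 2, at 13.95 and 35.9 in corals 7 and 75, and at 20.7, 22.0 and 60.9 in corals 40, 68 and 70. Its difference between pools was 0.62 (SE 0.49, limma adjusted p = 0.9996). Between origins it had the smallest unadjusted p of the 25 tested members, at a log2 difference of -0.89, origin 300 minus origin 400 (SE 0.51, limma unadjusted p = 0.112, adjusted p = 0.998). That value ran from -1.22 to -0.27 with 1 coral left out, the latter without coral 2. The mean of the corals was 22.6 ± 10.9 for origin 300 and 33.3 ± 11.8 for origin 400 (SD, n = 3).

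Of the Pumilio contigs, Pumilio homolog 1 (contig158053) is the classical translational repressor, while the human proteins behind the names KIAA0020 and C14orf21 sit in the nucleolus. Pumilio homolog 1 stood in pool 300 at 20.3, 46.1 and 39.2 in corals 2, 7 and 75, and at 51.6, 22.9 and 34.3 in corals 40, 68 and 70. The values in pool 400 were 8.28, 31.4 and 44.4 in corals 2, 7 and 75, and 43.8, 39.9 and 70.6 in corals 40, 68 and 70. The contig was lower in pool 300 in 3 of 6 corals, and the log2 difference over the 6 was 0.00 (SE 0.29). C14orf21 (contig76745) ranged from 4.34 to 53.3 with a difference of -0.20 (SE 0.34).

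The names of the meiosis members come from fission yeast, where the genes are induced in meiosis. Meiotically up-regulated gene 158 protein (contig184643) stood in pool 300 at 116, 139 and 90.5 in corals 2, 7 and 75, and at 59.8, 77.1 and 97.05 in corals 40, 68 and 70. The pool 400 fragments gave 124, 106 and 107 in corals 2, 7 and 75, and 55.4, 94.9 and 150.3 in corals 40, 68 and 70. Coral 40 was low in both pools, and the origins overlapped. The difference between pools was -0.13 (SE 0.15) and that between origins 0.42 (SE 0.30, limma unadjusted p = 0.196, adjusted p = 0.998). The latter ran from 0.149 to 0.678 with 1 coral left out. It was -0.098 without corals 40 and 68, where coral 70 alone stands for origin 400. Meiotic coiled-coil protein 6 (contig106017) ranged from 9.94 to 52.6, with a difference between pools of -0.02 (SE 0.29).

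The 6 contigs named CUB and zona pellucida-like domain-containing protein 1 are placed here under egg coat for their zona pellucida domain. That domain also builds matrices other than the egg coat, and the protein was named in mammals. Of the 5 tested, 4 had log2 differences below 0, from -1.14 to 0.15 over the 5, and 0 were called. The contig with the highest mean, contig148578, stood in pool 300 at 179.6, 84.7 and 79.5 in corals 2, 7 and 75, and at 111, 222 and 99.9 in corals 40, 68 and 70. Its pool 400 values were 118, 187 and 253 in corals 2, 7 and 75, and 102, 234 and 353 in corals 40, 68 and 70. It was lower in pool 300 in 4 of 6 corals, with the opposite in corals 2 and 40, and its difference was -0.66 (SE 0.31, limma unadjusted p = 0.0572, adjusted p = 0.9996), from -0.91 to -0.43 with 1 coral left out.

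The egg coat contig99523 stood in pool 300 at 2.90, 6.23 and 6.04 in corals 2, 7 and 75, and at 12.3, 21.7 and 4.76 in corals 40, 68 and 70. In pool 400 the contig was at 3.31, 15.7 and 32.7 in corals 2, 7 and 75, and at 7.44, 27.5 and 67.9 in corals 40, 68 and 70. In coral 2 both libraries held 2 reads. The difference between pools was -1.14 (SE 0.53, limma unadjusted p = 0.0541, adjusted p = 0.9996), and that between origins -0.98 (SE 0.60, limma adjusted p = 0.998). Without single corals the difference between pools ran from -1.51 to -0.66, and that between origins from -1.38 to -0.43. The contig under the minimum mean, contig107815, averaged 7.12 and had no read in the pool 400 libraries of corals 2 and 7, where 3 reads would have been worth 4.97 and 2.62. Its highest library was coral 7 in pool 300, at 24.9. The 3 remaining contigs had differences of -0.05 (contig23386), -0.09 (contig153224) and 0.15 (contig103867), with SEs of 0.19, 0.34 and 0.31.

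The oocyte form of elongation factor 1-alpha, which delivers aminoacyl-tRNA to the ribosome, was named in the frog Xenopus. A general form shares most of its sequence, so reads of the 2 forms may have been split or mixed in counting. The contig212318 stood in pool 300 at 104, 125 and 106 in corals 2, 7 and 75, and at 108, 96.3 and 80.9 in corals 40, 68 and 70. The values in pool 400 were 44.7, 83.7 and 112 in corals 2, 7 and 75, and 104, 103 and 151 in corals 40, 68 and 70. The pool 300 values lay within the range of the pool 400 values. The contig175845 stood in pool 300 at 89.8, 109 and 124 in corals 2, 7 and 75, and at 96.1, 93.9 and 102 in corals 40, 68 and 70. The pool 400 fragments gave 43.1, 106 and 126 in corals 2, 7 and 75, and 103, 143 and 130.2 in corals 40, 68 and 70. The differences between pools were 0.13 (SE 0.23) and 0.00 (SE 0.20).

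**Figure D3:**
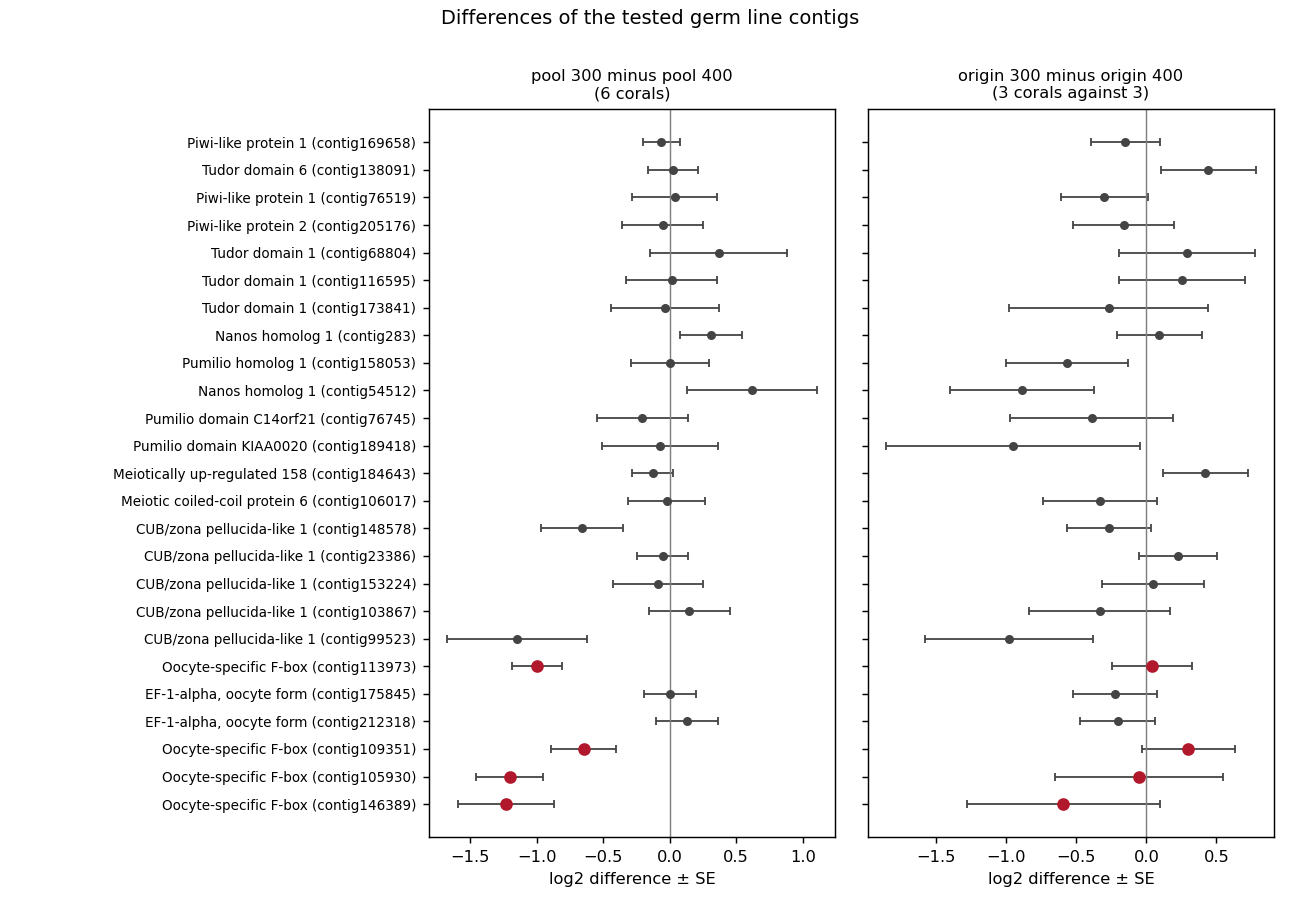
Differences of the 25 tested members on the log2(value + 1) scale with their standard errors. The left panel gives pool 300 minus pool 400 over 6 corals, the right panel origin 300 minus origin 400 on coral means, 3 corals against 3; red points are the Oocyte-specific F-box contigs. All 4 red points lie left of 0 for the pool, between -1.23 and -0.65, and on both sides of 0 for origin.

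Over all 25 tested members, 16 had a pool difference below 0 and 9 above, with a median of -0.052, where that of all tested contigs was 0.030. Of all tested contigs 44.4% were below 0. The count of members below 0 ran from 8 to 19 with 1 coral left out, the 8 being without coral 70, and from 11 to 19 in the other settings. In coral 70 the median difference was -1.03 for the tested members and -0.53 for all tested contigs. For all tested contigs it was 0.09 after rescaling, so the drop without coral 70 cannot be read as a trait of the members. The share of all tested contigs below 0 without coral 70 is not given here.

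The second comparison asked whether corals of the 2 origins differed in how their fragments depended on the pool. In the corals from pool 300, 0 of 25 members were called, against 0.554% of all tested contigs, and 4 had an unadjusted p under 0.05, against 4.71%. These were the F-box contigs, led by contig113973 with a difference of -1.18 (SE 0.27, limma adjusted p = 0.141), which DESeq2 called (adjusted p = 0.0262). In the corals from pool 400, 0 members were called, against 0% of all tested contigs, and 2 had an unadjusted p under 0.05, against 2.05%. They were contig105930 at -1.33 (SE 0.38, limma unadjusted p = 0.00572) and contig113973 at -0.81 (SE 0.27, limma unadjusted p = 0.0119), both with a limma adjusted p of 0.9997. Without corals 40 and 68 the latter was -0.325, which is the difference of coral 70 alone. The test of the difference itself called 0 members, against 0% of all tested contigs, and gave 0 at an unadjusted p under 0.05, against 1.77%. For the F-box contigs this difference, origin 300 minus origin 400, was -0.36 (contig113973, SE 0.38), 0.26 (contig105930, SE 0.54), -0.02 (contig146389, SE 0.78) and -0.55 (contig109351, SE 0.49).

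By edgeR and by DESeq2, 0 members were called in the test of the difference. The smallest p by limma belonged to the 2 contigs of elongation factor 1-alpha and to Pumilio homolog 1. The differences were 0.88 for contig212318 (SE 0.40, limma unadjusted p = 0.0537), 0.71 for contig175845 (SE 0.35, limma unadjusted p = 0.0734) and 1.04 for contig158053 (SE 0.53, limma unadjusted p = 0.0756), all at a limma adjusted p of 0.9996. Without coral 2 they were 0.556, 0.364 and 0.706. Without corals 40 and 68, where coral 70 alone stands for origin 400, they were 1.457, 0.708 and 1.544. All 3 had their lowest value in the pool 400 library of coral 2, and contig212318 and contig158053 had their highest in that of coral 70. Scaling moves this comparison for all contigs. The median over all tested contigs was 0.203 as deposited and -0.058 after rescaling, and that of the members 0.249 and -0.002.

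The third comparison set the corals from pool 300 against those from pool 400, with the coral as the replicate. Of the 25 members 0 were called, against 0.0336% of all tested contigs, and 0 had an unadjusted p under 0.05, against 2.64%. By edgeR and by DESeq2 0 members were called. By role, the differences ran from -0.30 to 0.44 for Piwi and Tudor, from -0.95 to 0.09 for Nanos and Pumilio, from -0.33 to 0.42 for meiosis, from -0.98 to 0.23 for the egg coat and from -0.59 to 0.30 for the oocyte contigs. The median of the members was -0.205, beside -0.103 for all tested contigs, and -0.069 beside 0.030 after rescaling. Of the F-box contigs, contig113973 and contig109351 were at 0.04 and 0.30, and contig105930 and contig146389 at -0.05 and -0.59. These values are within 1 standard error of 0, which was between 0.29 and 0.69.

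The last comparison asked which members held a level of their own in each coral, over both of its fragments. Of the 25 members 1 was called, or 4%, against 4.97% of all tested contigs, so the members' share was near that of the table. At an unadjusted p under 0.05 there were 8 members, against 26% of all tested contigs. The called member was the F-box contig105930 (limma moderated F, adjusted p = 0.0416), whose mean over both fragments was 88.2 in coral 75, 57.1 in coral 40, 43.5 in coral 7, 38.6 in coral 70, 24.0 in coral 68 and 10.2 in coral 2. The corals spanned 2.80 on the log2(value + 1) scale. The call was lost without coral 2, 7, 75 or 40, at limma adjusted p = 0.347, 0.0611, 0.0994 and 0.0529, and without coral 2 the span was 1.61.

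The other F-box contigs were not called between corals. The contig113973 had coral means of 167 in coral 75, 127 in coral 40, 106 in coral 7, 97.7 in coral 70, 91.0 in coral 68 and 79.2 in coral 2 (limma adjusted p = 0.385). In contig146389 coral 75 was highest at 40.4 and coral 2 lowest at 3.21, with a span of 2.93 (limma adjusted p = 0.0833), which was 1.41 without coral 2. In contig109351 coral 2 was highest at 99.2 and coral 70 lowest at 43.3. The Pumilio domain contig KIAA0020 (contig189418) had the largest span of the tested members, 3.78 (limma adjusted p = 0.0618), which was 1.67 without coral 2. It stood in pool 300 at 1.45, 9.96 and 18.1 in corals 2, 7 and 75, and at 12.3, 6.02 and 10.5 in corals 40, 68 and 70. Its pool 400 values were 0, 6.10 and 23.2 in corals 2, 7 and 75, and 18.2, 5.499 and 33.9 in corals 40, 68 and 70. Coral 2 held 1 read of it in pool 300 and none in pool 400, where 3 reads would have been worth 4.97. It passed the test after rescaling and in the fit without a minimum mean (limma adjusted p = 0.0498 in both), without coral 70 (limma adjusted p = 0.044) and by DESeq2 (adjusted p = 0.0459), and the range over all alternatives was 0.044 to 0.439. Tudor domain-containing protein 6 (contig138091), with a span of 1.46 (limma adjusted p = 0.119), was called between corals by DESeq2. By DESeq2 1223 of the 11903 tested contigs were called between corals, against 592 by limma, so such a call does not set a member apart.

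**Figure D4:**
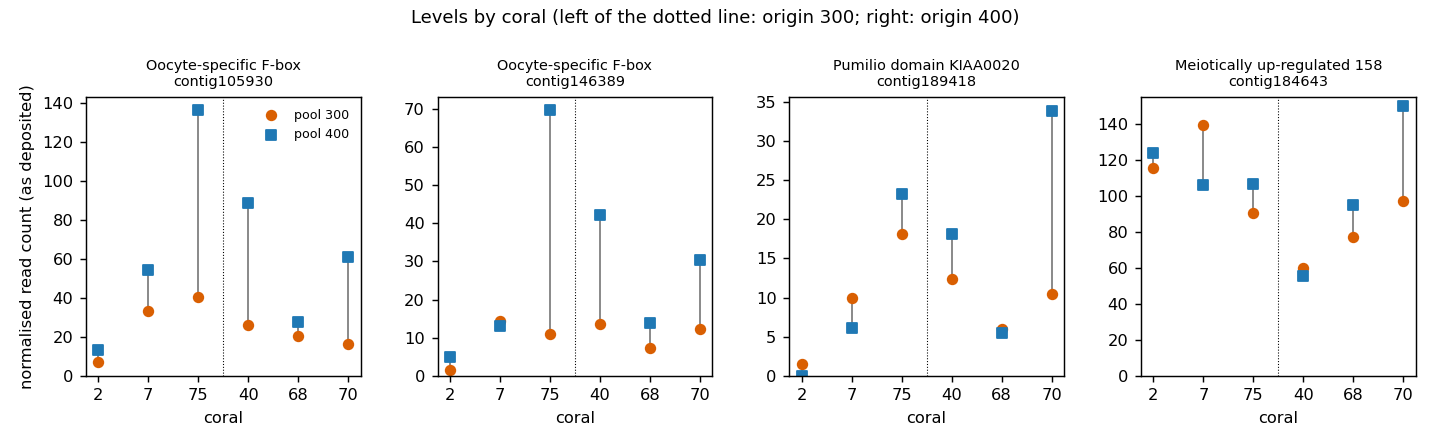
Normalised read counts by coral for the 3 members of smallest p between corals and for Meiotically up-regulated gene 158 protein. Circles give the fragment in pool 300 and squares that in pool 400, joined by a line; corals left of the dotted line have their origin in pool 300. In contig105930 coral 2 is low and coral 75 high in both pools, and in contig184643 coral 40 is low in both.

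Related pathways were read from word lists over the same descriptions, with the members left out. The median pool difference of all tested contigs was 0.030. An unadjusted p under 0.05 was found for 4.87% of them. In the lists it was found for 0 of 7 contigs of small RNA silencing, 1 of 3 of meiotic recombination, 0 of 11 germ cell and maternal RNA regulators and 0 of 14 of yolk and lipoprotein handling. It was found for 1 of 22 relatives of egg coat proteins, 2 of 33 of testis and sperm and 2 of 21 of steroid signalling. Of 7 tested contigs of small RNA silencing, such as argonaute, 0 were called between the pools, with a median of -0.021, and the smallest p belonged to the Protein argonaute-2 contig114676 at 0.22 (SE 0.27). Of 3 tested contigs of meiotic recombination 0 were called. MutS protein homolog 5 (contig74405), which stabilises crossover intermediates in meiosis, had means of 54.8 ± 32.5 and 84.1 ± 40.6 in pools 300 and 400 (SD, n = 6), a difference of -0.69 (SE 0.20, limma adjusted p = 0.39). Between origins it was at -1.08 (SE 0.47, limma adjusted p = 0.998). Of 11 tested germ cell and maternal RNA regulators 0 were called, with a median of 0.031. CUGBP Elav-like family member 3 (contig106098), of smallest p among them, was at 0.18 (SE 0.15). DAZ-associated protein 1 (contig177913), an RNA-binding protein, was at 0.19 (SE 0.18).

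The lists nearest to yolk and egg coat gave 0 calls between the pools as well. Of 14 tested contigs of yolk and lipoprotein handling 4 were below 0, with a median of 0.106. The smallest p belonged to von Willebrand factor D and EGF domain-containing protein (contig155610), at 0.30 (SE 0.19, limma adjusted p = 0.9996). Apolipophorins (contig170586), which carry lipid in insect blood, was at 0.58 (SE 0.43, limma adjusted p = 0.9996). Of 22 tested relatives of egg coat proteins 13 were below 0, with a median of -0.086. Deleted in malignant brain tumors 1 protein (contig20560) had means of 291 ± 68.2 and 414 ± 103 in pools 300 and 400 (SD, n = 6), a difference of -0.50 (SE 0.16, limma adjusted p = 0.54). The 10 tested contigs named only Egg protein are also among these relatives of egg coat proteins. Taken as a list, added after the data were seen, they had a median of -0.067, 0 calls and 0 at an unadjusted p under 0.05. Of 33 tested testis and sperm contigs 14 were below 0 and 0 called, with a median of 0.040. Of the 33, 3 were lower in pool 300 in all 6 corals, or 9.09%, against 1.76% of all tested contigs. This list overlaps that of sperm and cilia above, so the 2 counts are not separate. Tektin-B1 and Tektin-2, both lower in pool 300 in 6 corals, are in both lists.

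Among 21 tested contigs of steroid signalling and hormones 12 were below 0 between the pools, with a median of -0.035. Of the 21, 1 was called, lower in pool 300, or 4.76%, against 0.344% of all tested contigs. Steroid 17-alpha-hydroxylase/17,20 lyase (contig145436), in vertebrates an enzyme of sex steroid synthesis, had means of 130.3 ± 65.2 and 426 ± 111 in pools 300 and 400 (SD, n = 6). The difference between pools was significant, at -1.81 (SE 0.19, limma adjusted p = 0.00703). This contig was already known from earlier results on these data, so the share called in its list is a description and not a further test. Follistatin-related protein 5 (contig15033) was at -0.61 (SE 0.27, limma adjusted p = 0.9996). Between origins 0 contigs of these 7 lists were called. Of 2 tested contigs of the algal symbiont, 0 were called between the pools or between origins. Between origins contig194637, named Photosystem II CP47 chlorophyll apoprotein, was at 3.38 (SE 0.87, limma adjusted p = 0.998). Its values ran from 0 to 51.8 over the libraries. Photosystem Q(B) protein (contig217061) went the other way between origins, at -0.31 (SE 0.29, limma adjusted p = 0.998).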

How the data were processed

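The deposited values are a signal per contig, read counts that the authors divided by 1 factor per library: at a tolerance of 0.01 each value, save a single 0.1 that was read as 0, is a whole number of reads times the worth of 1 read. Per the file headers the pool 400 columns are marked as adjusted. The sources used here do not say how. In pool 400 the deposited factors differ from factors of the median-ratio kind, recomputed on recovered reads. The submitters' processing notes name BWA and DESeq, without versions. The 9 other columns of per-sample or group values were not used here. No genome, position, contig length or sequence was used here.

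From the deposited values, log2(value + 1) of the 11903 contigs with a mean of at least 10 was fitted by limma 3.58.1 (R 4.3.3) using a variance trend, with Benjamini-Hochberg adjustment over all of them, called at an adjusted p under 0.05. Differences on that scale come out too small for contigs with low values. The coral was a block, because the 2 fragments are of the same animal by the labels. Origin was fitted on coral means, and differences between corals with a moderated F and the pool as covariate. The pool and origin fits were also run on simulated counts, with the same spread for all contigs and no scaling error. That run does not show how large a difference these libraries could detect. Alternatives were pseudocounts of 0.5 and 5, minimum means of 0 and 20, median-ratio rescaling, edgeR 4.0.16 (quasi-likelihood) and DESeq2 1.42.0 on the recovered reads, no replicate block, an exchange or omission of corals 40 and 68, and each coral left out. Floors at 3 reads cover counting error only, and each coral has 1 library per pool.

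The members and lists were chosen with earlier results of these data known. The lists of DDX4, other F-box proteins and Egg protein, and the count of members below 0 under each alternative, were added after the data were seen. Named members were, by rule, the highest mean of each role and the 3 smallest p of each comparison. The rule for each list was the 2 contigs of smallest p for the pool or for origin. The list contigs named here are from these, but not all of these are named. Vitellogenin missed the minimum mean of the rule and is given because it is the only yolk member. A planned search for contigs like it was therefore not made. The F-box contig109351 and the remaining members are named to account for all.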

Additional observations from a re-analysis of the deposited data

How the results depend on the processing

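For the pool over 6 corals, the count of called members was 0 in all settings except DESeq2, with 2, and the omission of 1 coral, with 0 to 1, the 1 being contig113973 without coral 70. In corals from pool 300 it was 0 except for DESeq2, with 1, where DESeq2 called 116 of all contigs and limma 66. It was 0 in every setting run for corals from pool 400, for origin and for the difference between origins. Between corals it was 1, and 2 without a minimum mean, 2 with rescaling, 3 with DESeq2 and 0 to 2 with 1 coral left out. Over all contigs the count between corals was 592, and 654 without a minimum mean, 393 with rescaling and 1223 with DESeq2. It was 112 to 863 with 1 coral left out. Without the replicate block the count for the pool was 0 as with it, and over all contigs 33 in place of 41. Over all contigs the pool count was 8 with rescaling, 8 with edgeR, 104 with DESeq2, 58 without a minimum mean, 63 with the fragments of corals 40 and 68 exchanged, 0 without both and 4 to 74 with 1 coral left out. The cause of these moves was not tested. Reversed was the F-box contig109351 in corals from pool 400, at 0.157 without corals 40 and 68. With 1 coral left out it ran from -0.66 to 0.177. Also reversed was contig184643 between origins, at -0.098 without corals 40 and 68. With corals 40 and 68 omitted, coral 70 alone stands for origin 400. The 4 F-box contigs stayed below 0 over 6 corals in every setting run. Depth limits the 10 members that were at or under the worth of 3 reads in some library.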
